A study of Mus musculus with 12 samples.

Results

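Cortical and medullary epithelium of the mouse thymus were compared in 6 of the 12 libraries of this series, 3 of tomato+ cortical thymic epithelial cells (cTEC) and 3 of tomato- medullary thymic epithelial cells (mTEC), chosen by their sample labels. All came from C57BL/6 mice with a tomato reporter for Kit ligand (KitL), the growth factor encoded by Kitl. Thymic stroma was sorted by flow cytometry for cells that lacked lineage markers, excluded the dye DAPI, and were EpCAM+ and CD31-. The cTEC were UEA1- Ly51+ and carried the reporter signal, and the mTEC were UEA1+ Ly51- and lacked it. UEA1 is a lectin that binds medullary epithelium, and Ly51 is an aminopeptidase of cortical epithelium. Reporter and gate changed together, so an effect of one cannot be told apart from an effect of the other. The labels give no age, sex or number of mice per library, and nothing says that the 3 libraries of a group came from separate animals. The p-values therefore measure only the spread between these libraries. The other 6 libraries, of endothelial cells, were not compared here.

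The thymus turns blood-borne progenitors into T cells in 2 compartments. In the cortex, epithelial cells attract the progenitors, give them Notch and cytokine signals, and display peptides, cut by proteases found in few other cells, on which developing T cells are positively selected. In the medulla, epithelial cells receive signals through RANK, CD40 and the lymphotoxin receptor, and display proteins of many other tissues, in part through the transcription regulator Aire. T cells that bind those peptides strongly are deleted or become regulatory T cells. Some medullary cells also take on programmes of peripheral cell types, such as tuft cells and the microfold cells of the gut.

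Polyadenylated RNA was amplified from few cells and sequenced, with 8388869 to 11807130 counts per library. Levels are given as CPM, counts per 1000000 of the scaled library, a measure that does not correct for transcript length. Values of single libraries are in the order of replicates 1, 2 and 3, and errors are SD with n = 3. The first principal component of the 6 libraries held 62.5% of the variance and separated the groups. Replicates differed by more than sampling noise in both groups, with a chi-square per degree of freedom of 39.4 to 57.1. Of 23306 gene symbols, 14057 had enough counts to be tested. A gene was called when its edgeR quasi-likelihood p, adjusted by the Benjamini-Hochberg method over all tested genes, was under 0.05. The SE beside a log2 fold change was derived from that test, as the absolute change divided by the square root of the F statistic.

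In this comparison 2487 genes (17.7%) were called. Of these, 971 (6.91%) were higher and 1516 (10.8%) lower in cTEC. The 2 sets of calls differed in size of change. Genes higher in cTEC had a median log2 fold change of 1.69, and 68 of them reached 5 or more. Genes lower in cTEC had a median of -4.03, and 644 of them fell by 5 or more. In the lower set 209 genes had 0 counts in all 3 cTEC libraries, whereas 14 genes of the higher set had 0 counts in all mTEC libraries. With such genes set at the bound that 3 counts over the group allow, the median of the lower set was -4.01. Over all tested genes the median was 0.00, so the lists described here are read against that value. Leaving out 1 library at a time left 1552 to 2068 calls, and 1171 of the calls (422 higher, 749 lower) were kept in all 6 leave-outs. With the endothelial libraries added to the fit, 1158 genes (7.83% of the 14792 then tested) were called, 1094 of them among the 2487.

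**Figure D1:**
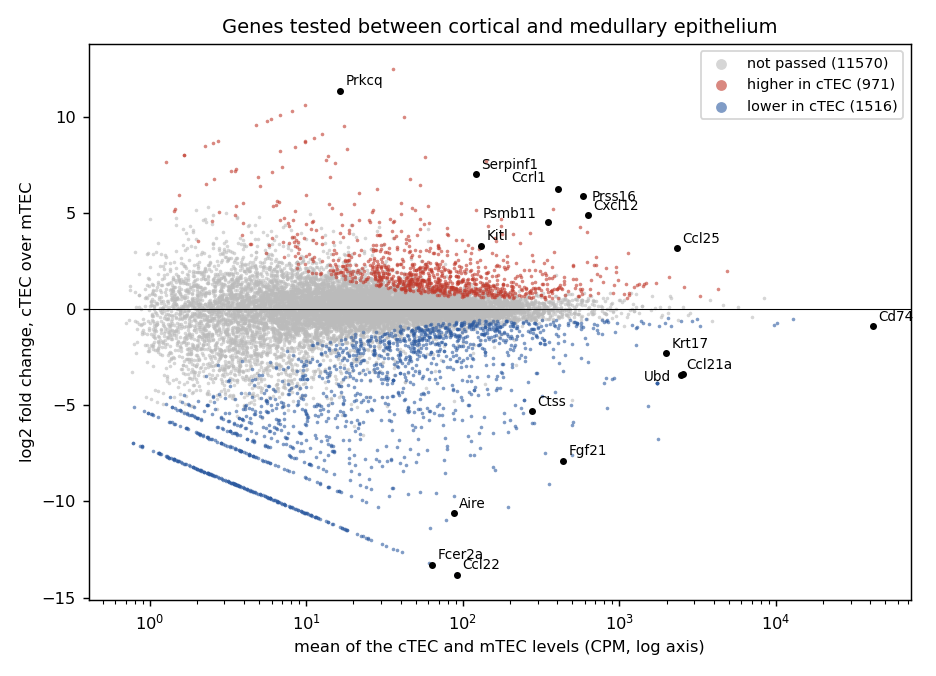
Each point is 1 of the 14057 tested genes, with the mean of the cTEC and mTEC levels (CPM, log axis) on the x axis and the log2 fold change, cTEC over mTEC, on the y axis. The 971 genes called higher in cTEC lie mostly between 0 and 5, whereas the 1516 called lower reach below -10, where the diagonal rows are genes at or near 0 counts in cTEC.

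One cTEC library stood apart in endothelial transcripts. Summed over 16 markers, endothelial transcripts reached 574 CPM in cTEC replicate 2, against 36.4 and 6.67 CPM in cTEC replicates 1 and 3 and 42.3 to 96.6 CPM in mTEC. On the scale of all 12 libraries, this was 4.04% of the endothelial groups' mean. Without that library 1696 genes were called (11.2% of the 15091 then tested), of which 1574 (581 higher, 993 lower) were among the 2487. Calls that were lost without it are named with their lists. On the first principal component cTEC replicate 3 lay nearest to mTEC, at 69.6 against 99.0 and 92.2 for cTEC replicates 1 and 2. Without cTEC replicate 3, 2068 genes were called, 693 higher and 1375 lower.

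The genes behind the sort were examined first. Kitl stood at 196, 249 and 271 CPM in cTEC and 39.00, 4.92 and 28.7 CPM in mTEC. All 3 cTEC libraries were above all 3 mTEC libraries, and Kitl rose in cTEC (log2 3.30, SE 0.63, edgeR adjusted p = 0.011). The call held in each leave-out, with adjusted p up to 0.0348. Enpep, which encodes Ly51, was at 110.2, 107 and 70.4 CPM in cTEC and 17.4, 0 and 39.5 CPM in mTEC. The groups did not overlap, but 2 of the 3 Ly51- libraries held Enpep transcripts and the difference missed the threshold (log2 2.33, SE 1.16, edgeR adjusted p = 0.217). Epcam, the surface protein used to gate both groups, was at 256 ± 23.3 CPM in cTEC and 386 ± 13.1 CPM in mTEC. It passed as lower in cTEC (log2 -0.59, SE 0.15, edgeR adjusted p = 0.0293), a call lost in each of the 6 leave-outs (adjusted p up to 0.0878) and with all 12 libraries in the fit (adjusted p = 0.367). Pecam1, the CD31 gene of the negative gate, was at 1.87, 115 and 0.469 CPM in cTEC and 8.37, 14.00 and 2.30 CPM in mTEC, so its transcripts were mostly in cTEC replicate 2.

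The genes that define cortical epithelium were high in the tomato+ Ly51+ cells. Of 15 such genes tested, 10 rose, none fell and 5 did not pass. Kitl, the reporter gene, was among the 10, and Enpep, the gene of the Ly51 gate, among the 5. Both lay higher in cTEC without overlap, a direction set by the sort, so they add nothing to the list. The median log2 fold change of the 15 was 3.15, and in 14 of them all cTEC libraries lay above all mTEC libraries, as in 18.6% of all tested genes (no overlap in either direction in 40.1%). Prss16, a thymus-specific serine protease of the peptide-processing pathway, was at 1414, 1147 and 898 CPM in cTEC and 16.6, 22.2 and 19.6 CPM in mTEC. The lowest cTEC library was 40.5-fold above the highest mTEC library, and the mTEC values lay close together (log2 5.89, SE 0.25, edgeR adjusted p = 5.83e-05). Ccrl1, a decoy receptor that binds Ccl25, Ccl19 and Ccl21, was at 748, 812 and 847 CPM in cTEC and 7.31, 5.30 and 18.9 CPM in mTEC and rose as well (log2 6.24, SE 0.50, edgeR adjusted p = 0.000453). Ly75, the endocytic receptor DEC-205 and a surface marker of cortical epithelium, was at 127, 140.3 and 181 CPM in cTEC and 2.44, 6.94 and 14.7 CPM in mTEC. It was low in all mTEC libraries, although 6.02-fold apart within that group (log2 4.21, SE 0.59, edgeR adjusted p = 0.00327). Tbata, named for its presence in thymus, brain and testes, was abundant in both groups, at 3163 ± 595 CPM in cTEC and 985 ± 146 CPM in mTEC (log2 1.68, SE 0.19, edgeR adjusted p = 0.00141).

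Foxn1, the transcription factor on which the thymic epithelial programme depends, was at 62.1, 81.2 and 86.9 CPM in cTEC and 52.5, 39.9 and 36.9 CPM in mTEC. The cTEC libraries were all above the mTEC libraries, yet Foxn1 missed the threshold (log2 0.83, SE 0.25, edgeR adjusted p = 0.0582). Krt8 and Krt18, keratins often used to stain cortex, did not pass either. Krt8 was at 557 ± 21.8 CPM in cTEC and 497 ± 38.8 CPM in mTEC, and Krt18 at 2601 ± 545 and 1638 ± 323 CPM. Without cTEC replicate 2, 9 of the 10 calls of this list remained, Dll4 being lost. In the fit of all 12 libraries 8 remained, Tbata and Ccl25 being lost with adjusted p = 0.111 and 0.156.

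**Figure D2:**
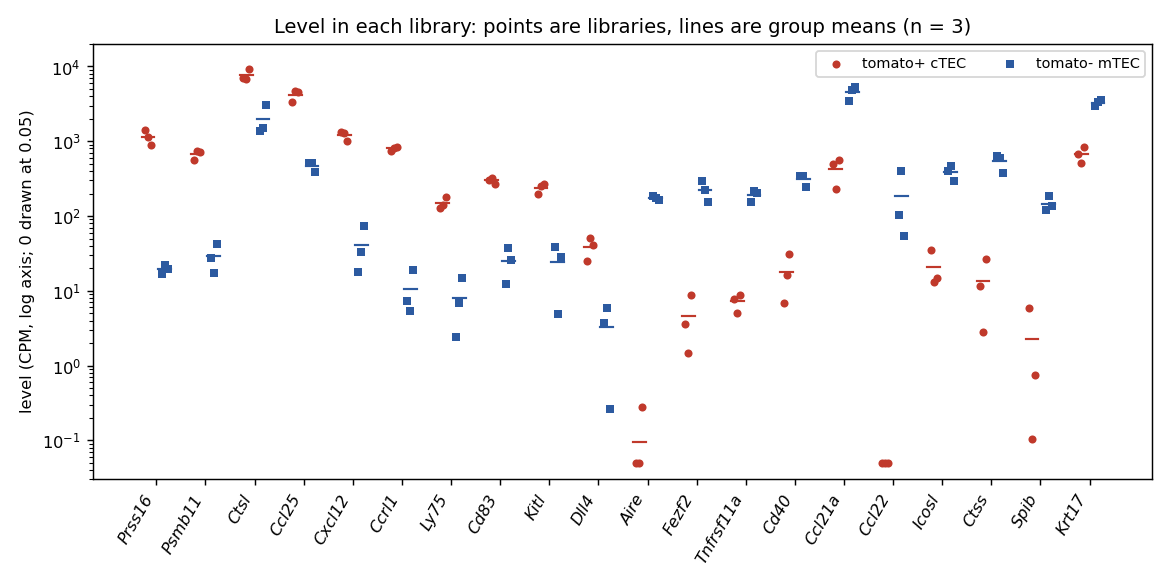
Level of 20 genes in each library (CPM, log axis, values of 0 drawn at 0.05), with red circles for the 3 tomato+ cTEC libraries, blue squares for the 3 tomato- mTEC libraries and lines for group means. The 10 genes on the left lie higher in every cTEC library and the 10 on the right lie higher in every mTEC library, with Ccl22 at 0 in all 3 cTEC libraries.

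Stretches upstream of the annotated start of a few of these genes are printed here, because Foxn1 is known to act directly on Psmb11 and other cortical genes. They come from RefSeq, build GRCm38.p6, which differs from the mm9 build of the files. The search covered 250 bases upstream of each start, on both strands, for GACGC, the core of the sequence bound by Foxn1, with matches in capitals (GCGTC where the match is on the other strand). GACGC was found in 22.6% of all 32851 promoters of the table and in 35.4% of the 13999 promoters of tested genes, so a single match is common. Psmb11, Ccl25, Cxcl12, Pax1 and Kitl each held at least 1 match, and the first base of the match lay 62, 56, 62, 86 and 183 bases upstream of the start in the stretches shown. Ly75, Ctsl, Tbata, Ccrl1, Dll4 and Serpinf1 held none, so genes with and without the letters were among those that rose. Over all called genes, GACGC was in 34.8% of the 1002 promoters of higher genes and 25.3% of the 1444 promoters of lower genes. The share of the higher set was thus not above that of tested genes. The sets also differed in base composition. The median content of G and C was 60.8% for higher, 56.0% for lower and 59.2% for tested genes, and 52.4% for all promoters. Whether the shares follow that content was not tested. Only 761 of the 971 higher, 1137 of the 1516 lower and 11035 of the 14057 tested genes had an entry, under 80% of each set. The shares are descriptions and were not tested.
Psmb11, chr14:54625208-54625292, plus strand: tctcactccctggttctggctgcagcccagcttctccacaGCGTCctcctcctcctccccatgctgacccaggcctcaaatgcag
Ccl25, chr8:4325114-4325198, plus strand: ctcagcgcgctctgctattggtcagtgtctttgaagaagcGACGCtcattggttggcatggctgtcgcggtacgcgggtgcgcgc
Cxcl12, chr6:117168433-117168517, plus strand: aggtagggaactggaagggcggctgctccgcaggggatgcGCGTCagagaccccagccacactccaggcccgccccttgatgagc
Pax1, chr2:147364868-147364952, plus strand: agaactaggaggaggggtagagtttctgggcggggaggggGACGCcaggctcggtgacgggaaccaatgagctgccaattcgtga
Kitl, chr10:100015598-100015682, plus strand: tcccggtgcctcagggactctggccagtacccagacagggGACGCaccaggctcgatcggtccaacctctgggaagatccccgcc

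Of 15 tested genes that bring in and instruct T-cell progenitors, 8 rose in cTEC and none fell, with a median log2 fold change of 1.79. The reporter gene Kitl, whose direction was set by the sort, was among the 8. Ccl25, the chemokine that attracts progenitors through Ccr9, was at 3368, 4727 and 4522 CPM in cTEC and 512, 512 and 393 CPM in mTEC. It was abundant in both compartments, with no overlap (log2 3.15, SE 0.20, edgeR adjusted p = 0.000248). Cxcl12, the ligand of Cxcr4, was at 1339, 1309 and 1009 CPM in cTEC and 18.01, 32.9 and 73.5 CPM in mTEC. Its levels within mTEC were spread 4.08-fold, yet the lowest cTEC library was 13.7-fold above the highest mTEC library (log2 4.87, SE 0.51, edgeR adjusted p = 0.00116).

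Notch ligands differed in level and in stability. Dll1 was at 49.7 ± 8.50 CPM in cTEC and 10.5 ± 5.04 CPM in mTEC (log2 2.25, SE 0.44, edgeR adjusted p = 0.0116) and was called in each leave-out. Dll4, the ligand that commits progenitors to the T lineage, was at 24.8, 51.4 and 40.8 CPM in cTEC and 3.71, 5.93 and 0.265 CPM in mTEC and rose (log2 3.57, SE 0.91, edgeR adjusted p = 0.0317). The call of Dll4 was lost without any 1 cTEC library or mTEC replicate 1 (adjusted p up to 0.0914). Jag2 was at 27.3 ± 11.5 CPM in cTEC and 4.598 ± 0.554 CPM in mTEC (log2 2.57, SE 0.49, edgeR adjusted p = 0.0105), and without cTEC replicate 1 its call was lost (adjusted p = 0.0523). Jag1 had no overlap but missed the threshold (log2 0.77, SE 0.23, edgeR adjusted p = 0.0555). Il7, the cytokine that sustains early thymocytes, was at 446, 491 and 603 CPM in cTEC and 244, 375 and 599.7 CPM in mTEC. These ranges overlapped, and the difference missed the threshold (log2 0.34, SE 0.31, edgeR adjusted p = 0.513).

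Bmp4, a morphogen that promotes Foxn1 expression in thymic epithelium, was at 20.5, 13.5 and 24.9 CPM in cTEC and 0, 0 and 0.0884 CPM in mTEC. With a single count in mTEC, this was a ratio of 569, with a 95% counting interval of 102 to 22495 (edgeR adjusted p = 0.00144). Wnt4, a Wnt ligand made by thymic epithelium, was at 99.4 ± 31.2 CPM in cTEC and 28.7 ± 5.43 CPM in mTEC (log2 1.79, SE 0.30, edgeR adjusted p = 0.00698). The fit with all 12 libraries kept 4 of the 8 calls, and Dll1, Jag2, Ccl25 and Wnt4 were lost with adjusted p = 0.0765, 0.0722, 0.156 and 0.0714.

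Receptors for several of these growth factor families were also higher in cTEC. In the BMP and TGF-beta list of 20 tested genes, 4 rose and 1 fell. Tgfbr2, the type II receptor for TGF-beta, was at 159, 126 and 93.4 CPM in cTEC and 6.89, 20.4 and 15.02 CPM in mTEC and rose (log2 3.16, SE 0.43, edgeR adjusted p = 0.00274). Smad1, which carries the BMP signal, was the one that fell (log2 -1.08, SE 0.21, edgeR adjusted p = 0.011). In the fibroblast growth factor list of 9 tested genes, 4 rose and 1 fell. Fgf1 rose to 80.2 ± 29.5 CPM in cTEC from 10.4 ± 1.86 CPM in mTEC (log2 2.94, SE 0.38, edgeR adjusted p = 0.00223), and so did Dusp6, a phosphatase induced by ERK signalling (log2 2.19, SE 0.38, edgeR adjusted p = 0.00757). Fgfr2, the receptor by which thymic epithelium responds to Fgf7, rose less (log2 1.07, SE 0.22, edgeR adjusted p = 0.0153). The call of Fgfr2 was lost without cTEC replicate 1 or mTEC replicate 1 or 2 (adjusted p up to 0.0553) and with all 12 libraries in the fit (adjusted p = 0.385). Fgf21, a hormone of the liver, went the other way, at 1.87, 0.312 and 8.64 CPM in cTEC and 864, 1138 and 606 CPM in mTEC (log2 -7.89, SE 0.95, edgeR adjusted p = 0.00177).

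The binding proteins of insulin-like growth factors rose in 4 of 9 tested genes of their list, and none fell. Igfbp5 was at 2492, 1545 and 664 CPM in cTEC and 379.8, 371 and 296 CPM in mTEC. Its cTEC values were spread 3.75-fold and still lay above all mTEC values (log2 2.17, SE 0.42, edgeR adjusted p = 0.0118). Igfbp2 was at 46.3 ± 10.9 CPM in cTEC and 7.46 ± 2.52 CPM in mTEC (log2 2.63, SE 0.41, edgeR adjusted p = 0.00508). The growth factor Igf1 itself overlapped between groups and missed the threshold (log2 -0.84, SE 0.56, edgeR adjusted p = 0.361). Among 17 Wnt genes tested 3 rose and 2 fell. Lrp6, a co-receptor for Wnt ligands, rose (log2 1.35, SE 0.27, edgeR adjusted p = 0.0123), and Wnt10b fell, at 0.0984, 0 and 0 CPM in cTEC and 6.36, 7.19 and 6.45 CPM in mTEC (edgeR adjusted p = 0.00855). Axin2, a target of canonical Wnt signalling, missed the threshold (log2 0.49, SE 0.58, edgeR adjusted p = 0.629). With all 12 libraries in the fit, the calls of Fgf1, Fgfr2, Igfbp5, Igfbp2 and Lrp6 were lost (adjusted p = 0.221, 0.385, 0.308, 0.084 and 0.0966).

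Proteasome genes split between the compartments. Psmb11 encodes beta5t, the catalytic subunit that forms the thymoproteasome of cortical epithelium. It was at 556, 749.9 and 708 CPM in cTEC and 27.2, 17.4 and 42.6 CPM in mTEC, and rose (log2 4.52, SE 0.35, edgeR adjusted p = 0.00042). On the deposited RPKM scale, which divides by a length per gene, Psmb11 stood at 163 ± 24.8 RPKM in cTEC, above Psmb5 (88.6 ± 7.54 RPKM), which encodes the constitutive beta5 subunit, and in the range of Psmb8 (171 ± 52.8 RPKM), which encodes the beta5i subunit of the immunoproteasome. In mTEC the order was Psmb8 (221 ± 27.5 RPKM), Psmb5 (92.6 ± 15.3 RPKM) and Psmb11 (6.58 ± 2.88 RPKM). Psmb5 and Psmb8 did not pass between groups (log2 -0.17, SE 0.21, edgeR adjusted p = 0.64, and log2 -0.47, SE 0.25, edgeR adjusted p = 0.251). Psmb9, the interferon-inducible beta1i subunit, rose in cTEC (log2 1.10, SE 0.21, edgeR adjusted p = 0.0104). The constitutive subunit Psmb7 and both genes of the PA28 activator, Psme1 and Psme2, fell in cTEC (log2 -0.76, -1.24 and -1.61, with edgeR adjusted p = 0.0116, 0.00184 and 0.00172). Psme2 was nearly the same in all cTEC libraries, at 78.8, 77.8 and 79.2 CPM in cTEC and 278, 252 and 191 CPM in mTEC. Over the 9 tested genes 2 rose and 4 fell. In the fit of all 12 libraries Psmb6 and Psmb7 were lost (adjusted p = 0.0786 and 0.114), and Psmb6 was also lost without any 1 library but cTEC replicate 3 (adjusted p up to 0.121).

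Lysosomal proteases of the class II pathway differed in direction. Ctsl, whose product cathepsin L degrades the invariant chain in cortical epithelium, was at 7056, 6903 and 9291 CPM in cTEC and 1368, 1492 and 3098 CPM in mTEC. Ctss, whose product cathepsin S does so in antigen-presenting cells of bone marrow origin, was at 11.7, 2.81 and 26.3 CPM in cTEC and 639.8, 594 and 381 CPM in mTEC. Ctsl rose in cTEC (log2 1.96, SE 0.32, edgeR adjusted p = 0.00619) and Ctss fell (log2 -5.30, SE 0.73, edgeR adjusted p = 0.00301), with no overlap in either. Ctss was not uniform within cTEC, where replicate 2 held the lowest value and replicate 3 the highest. Of the 16 tested class II genes 3 rose and 8 fell in cTEC, with a median log2 fold change of -0.77. The classical genes were very abundant in both groups. Cd74, the invariant chain, took the largest share of counts of any gene in all 6 libraries, 2.84 to 3.17% in cTEC and 4.52 to 5.67% in mTEC (log2 -0.90, SE 0.13, edgeR adjusted p = 0.00394). H2-Aa fell by a similar step (log2 -0.81, SE 0.14, edgeR adjusted p = 0.00679), and H2-Ab1 overlapped and missed the threshold (log2 -0.42, SE 0.24, edgeR adjusted p = 0.284).

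The genes that edit class II peptides differed among themselves. H2-DMa, a chain of the peptide editor, rose in cTEC, at 792, 729.7 and 811 CPM in cTEC and 335, 389 and 396 CPM in mTEC (log2 1.06, SE 0.14, edgeR adjusted p = 0.00297). Of the genes for its beta chain, H2-DMb2 fell (log2 -1.10, SE 0.17, edgeR adjusted p = 0.00504), and H2-DMb1 overlapped without passing (log2 -0.21, SE 0.15, edgeR adjusted p = 0.401). The 2 chains of its inhibitor both fell. H2-Oa was at 98.5 ± 29.6 CPM in cTEC and 403 ± 70.3 CPM in mTEC (log2 -2.03, SE 0.25, edgeR adjusted p = 0.00197), and H2-Ob at 3.15, 3.12 and 12.6 CPM in cTEC and 93.8, 81.1 and 65.8 CPM in mTEC (log2 -3.67, SE 0.60, edgeR adjusted p = 0.0061). Ciita, the regulator of class II genes, missed the threshold (log2 -0.72, SE 0.40, edgeR adjusted p = 0.27). The fit with all 12 libraries kept 2 of the 11 class II calls, Ctsl and H2-Ob, and that of Ctss had adjusted p = 0.108 there. Without cTEC replicate 2 the fit kept 10, all but Ctsd (adjusted p = 0.0892), which was lost in every leave-out but that of mTEC replicate 3 (adjusted p up to 0.117).

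Of 12 tested genes of class I presentation, 1 rose and 4 fell, and H2-K1 and Tap1 overlapped between groups without passing (log2 -0.22 and 0.12). B2m fell to 7696 ± 309 CPM in cTEC from 12578 ± 737 CPM in mTEC (log2 -0.71, SE 0.12, edgeR adjusted p = 0.00604), and so did Nlrc5, the regulator of class I genes (log2 -1.45, SE 0.28, edgeR adjusted p = 0.011). In 15 tested genes of autophagy, a route by which epithelium loads its own proteins on class II, 1 rose and 1 fell, shares near the background. Lamp2, a lysosomal membrane protein, was the gene that rose (log2 1.14, SE 0.19, edgeR adjusted p = 0.00719), and Map1lc3a, one of the LC3 genes, fell (log2 -1.46, SE 0.24, edgeR adjusted p = 0.0066), a call lost with all 12 libraries in the fit (adjusted p = 0.0928).

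Of 14 tested medullary genes, 12 fell and none rose, with a median log2 fold change of -4.34. Aire was at 0, 0 and 0.282 CPM in cTEC and 186, 174 and 165 CPM in mTEC. It was steady in mTEC and had 3 counts over all cTEC libraries, a ratio of 1768, with a 95% counting interval of 605 to 8575 (edgeR adjusted p = 0.000182). Fezf2, a second transcription factor that controls tissue proteins in mTEC, was at 3.64, 1.46 and 8.83 CPM in cTEC and 292, 222 and 153 CPM in mTEC (log2 -5.57, SE 0.63, edgeR adjusted p = 0.00141). Its cTEC values were low but above 0 in each library. Ccl19, a chemokine that draws positively selected thymocytes into the medulla, was at 6.89, 3.96 and 5.35 CPM in cTEC and 335, 264 and 207 CPM in mTEC (log2 -5.63, SE 0.32, edgeR adjusted p = 0.000182). Ccl21a, which acts on the same receptor, was at 492, 229 and 558 CPM in cTEC and 3481, 4809.8 and 5271 CPM in mTEC (log2 -3.41, SE 0.35, edgeR adjusted p = 0.00101). Unlike Aire, Ccl21a transcripts were abundant in each cTEC library, and so were those of Krt14, at 620.3, 420.4 and 471 CPM in cTEC and 841, 1007 and 787 CPM in mTEC (log2 -0.80, SE 0.19, edgeR adjusted p = 0.0246). The counts of Ccl21b and Ccl21c differed by at most 1 in any library and cannot be told apart from each other, and reads may also be split with Ccl21a. Of the 12 calls, 10 remained without cTEC replicate 2, Krt5 and Krt14 being lost (adjusted p = 0.0512 and 0.0887), and Krt14 was also lost without cTEC replicate 3 or mTEC replicate 1 or 2 (adjusted p up to 0.0887). The fit with 12 libraries kept 9, without Krt14, Cd80 and Cd40 (adjusted p = 0.241, 0.107 and 0.0516).

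Of 22 tested genes of the receptors that drive mTEC maturation and of NF-kB signalling downstream of them, 10 fell in cTEC and 1 rose, with a median log2 fold change of -1.33. Tnfrsf11a, which encodes RANK, was at 7.77, 5.10 and 8.83 CPM in cTEC and 153, 215 and 200.4 CPM in mTEC (log2 -4.71, SE 0.29, edgeR adjusted p = 0.000248). Cd40 was at 6.89, 16.2 and 30.8 CPM in cTEC and 347, 339 and 246 CPM in mTEC (log2 -4.11, SE 0.51, edgeR adjusted p = 0.00199). Tnfrsf11b, the secreted decoy for the RANK ligand, was at 13.7 ± 11.4 CPM in cTEC and 227 ± 85.9 CPM in mTEC (log2 -4.05, SE 0.73, edgeR adjusted p = 0.00861). Ltbr, the lymphotoxin receptor, lay the other way, at 57.5, 34.6 and 30.99 CPM in cTEC and 8.05, 9.33 and 27.04 CPM in mTEC, without overlap and without passing (log2 1.47, SE 0.55, edgeR adjusted p = 0.11). Relb and Nfkb2, the subunits of the non-canonical pathway, fell to 29.6 ± 8.84 and 21.9 ± 7.12 CPM from 89.7 ± 19.8 and 75.9 ± 3.59 CPM (log2 -1.60, SE 0.31, edgeR adjusted p = 0.011, and log2 -1.79, SE 0.30, edgeR adjusted p = 0.0063). Nfkb1, a subunit of the canonical pathway, rose to 303 ± 45.1 CPM from 116 ± 29.7 CPM (log2 1.38, SE 0.23, edgeR adjusted p = 0.00691). Nfkbie and Birc3, which are targets of NF-kB, fell (log2 -2.19, SE 0.23, edgeR adjusted p = 0.00121, and log2 -2.54, SE 0.33, edgeR adjusted p = 0.00236). The fit with 12 libraries kept 4 of the 11 calls, those of Tnfrsf11a, Nfkb2, Nfkbie and Birc3. In it Tnfrsf11b, Relb and Nfkb1 had adjusted p = 0.188, 0.164 and 0.0573.

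Upstream stretches of genes of this pathway were searched for the NF-kB consensus in the same way. It was found in 3.90% of all promoters of the table and in 4.67% of those of tested genes. For genes called higher and lower the shares were 5.39% and 7.27%, with the same missing entries, and the difference was not tested. Nfkb2, Nfkbie, Ubd, Spib and Fezf2 held at least 1 match, and Birc3, Tnfrsf11a, Icosl, Ccl19, Ccl21a and Ccl22 held none, so the genes that fell included both kinds. The genes were chosen with their values known, and no share is drawn from them. The match in Nfkbie began 106, in Ubd 15 and in Spib 180 bases upstream of the start. In Spib the same letters match on both strands.
Nfkbie, chr17:45555554-45555643, plus strand: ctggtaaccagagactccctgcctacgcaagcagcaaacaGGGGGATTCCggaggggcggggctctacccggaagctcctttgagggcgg
Ubd, chr17:37193837-37193891, plus strand: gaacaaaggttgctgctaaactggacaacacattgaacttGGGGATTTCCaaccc
Spib, chr7:44532202-44532291, minus strand: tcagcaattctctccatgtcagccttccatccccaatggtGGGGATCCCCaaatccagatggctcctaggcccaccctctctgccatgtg

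Of 14 tested co-stimulatory and co-inhibitory genes, whose products act on T cells, 7 fell, 3 rose and 4 did not pass. Icosl was at 35.03, 12.9 and 14.6 CPM in cTEC and 406, 467 and 291 CPM in mTEC (log2 -4.22, SE 0.43, edgeR adjusted p = 0.00101), and Tnfsf9, the ligand of 4-1BB, was at 0.0984, 3.02 and 6.10 CPM in cTEC and 97.3, 89.7 and 58.2 CPM in mTEC (log2 -4.72, SE 0.95, edgeR adjusted p = 0.013). Cd80 and Cd86, ligands of CD28, were at or near 0 in most cTEC libraries. Cd80 was at 5.12, 0 and 0.657 CPM in cTEC and 49.9, 44.02 and 43.8 CPM in mTEC and fell (edgeR adjusted p = 0.0347). Cd86 was at 0, 0 and 0.188 CPM in cTEC and 2.97, 49.1 and 11.8 CPM in mTEC and fell as well (edgeR adjusted p = 0.0109). The call of Cd80 was lost without cTEC replicate 3 or any 1 mTEC library (adjusted p up to 0.0882) and with all 12 libraries in the fit (adjusted p = 0.107). The call of Cd86 was lost without mTEC replicate 2 (adjusted p = 0.0509). In limma voom Cd86 had adjusted p = 0.0532. The 3 genes that rose were Cd83, Cd200 and Cd274. Cd83, which in cortical epithelium supports the selection of CD4 T cells, was at 302, 327 and 269 CPM in cTEC and 12.4, 37.6 and 26.1 CPM in mTEC (log2 3.56, SE 0.39, edgeR adjusted p = 0.0013), and Cd200, an inhibitory ligand, was at 319.7 ± 72.8 CPM in cTEC and 66.98 ± 16.2 CPM in mTEC (log2 2.25, SE 0.26, edgeR adjusted p = 0.00141). Cd274, which encodes PD-L1, rose less (log2 1.16, SE 0.33, edgeR adjusted p = 0.0476). The call of Cd274 was lost without cTEC replicate 1 or 3 or any 1 mTEC library (adjusted p up to 0.147). The fit with 12 libraries kept 5 of the 10 calls, those of Cd86, Tnfsf9, Cd83, Cd200 and Cd274, and in it Icosl had adjusted p = 0.0537.

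Chemokines divided the compartments as well, with 3 of 16 tested genes higher and 8 lower in cTEC. Ccl22, a ligand of Ccr4, had 0 counts in all cTEC libraries and 103, 395 and 53.6 CPM in mTEC, at least 1663-fold lower in cTEC (edgeR adjusted p = 0.00392). Its mTEC values were spread 7.36-fold, with replicate 2 the highest, and limma voom did not call it (adjusted p = 0.0608). Cxcl9, an interferon-gamma-induced ligand of Cxcr3, was at 0.590, 12.3 and 20.1 CPM in cTEC and 486, 511 and 420.4 CPM in mTEC (log2 -5.42, SE 0.92, edgeR adjusted p = 0.0069), whereas Cxcl10, a ligand of the same receptor, overlapped at 1004, 988 and 2747 CPM in cTEC and 1621, 2136 and 2549 CPM in mTEC (log2 -0.41, SE 0.40, edgeR adjusted p = 0.541). Cxcl14 had 0 counts in cTEC and 12.7, 11.9 and 9.90 CPM in mTEC, at least 115-fold lower in cTEC (edgeR adjusted p = 0.00469). Cx3cl1 rose in cTEC, at 48.96 ± 8.54 CPM against 11.3 ± 6.01 CPM (log2 2.11, SE 0.46, edgeR adjusted p = 0.0179). The call of Cx3cl1 was lost without cTEC replicate 1 or mTEC replicate 2 (adjusted p up to 0.0643) and with all 12 libraries in the fit (adjusted p = 0.0638).

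**Figure D3:**
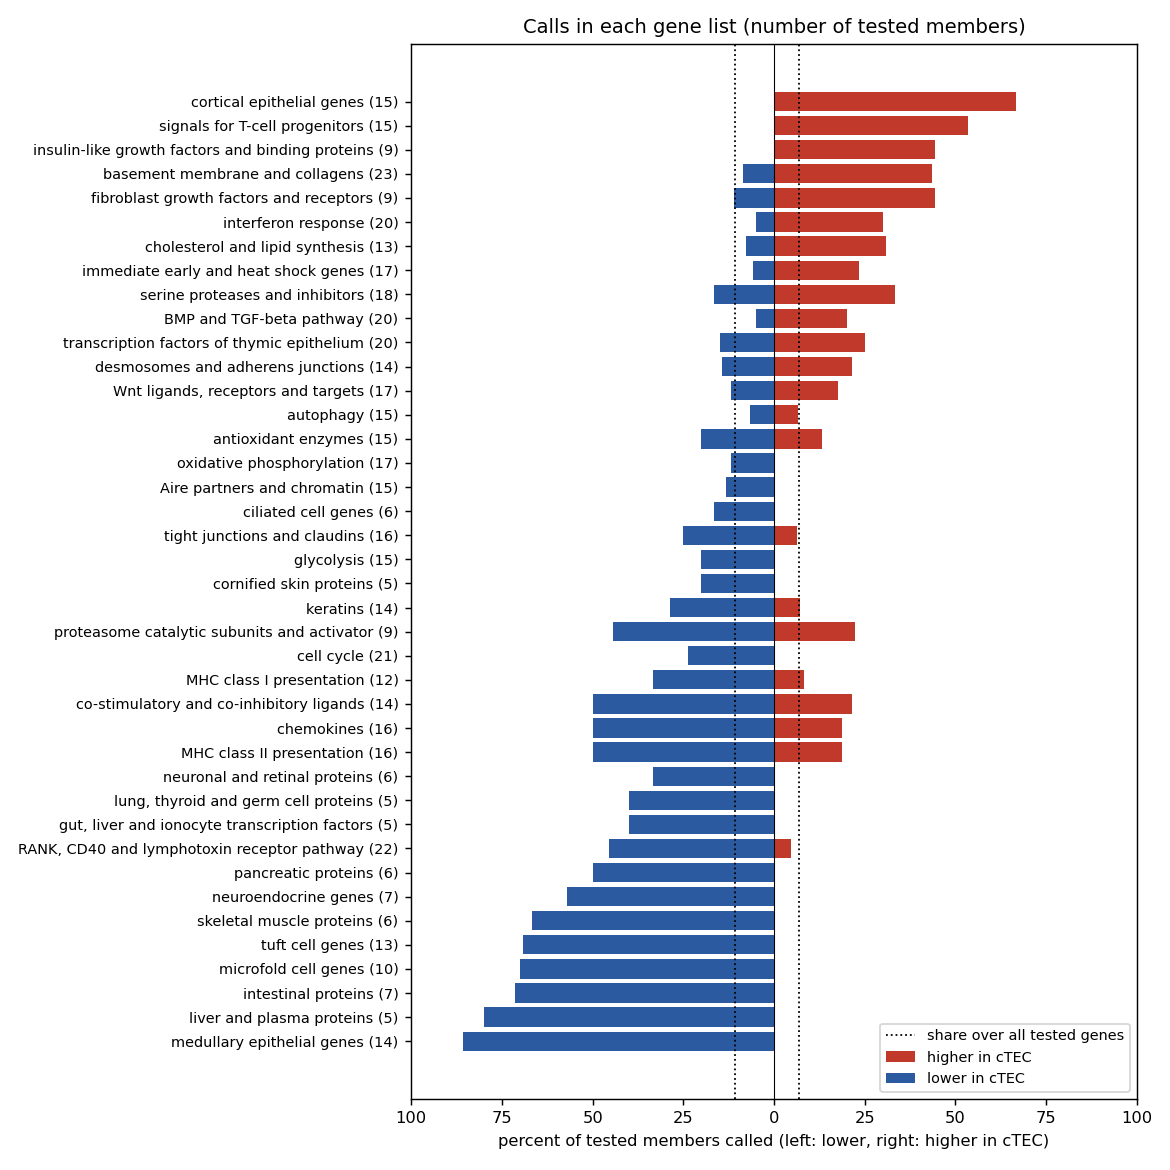
For each list with at least 5 tested genes, bars give the percent of tested genes called higher (red, right) or lower (blue, left) in cTEC, with the number tested in brackets and dotted lines at the shares over all tested genes, 6.91% and 10.8%. Cortical genes and signals for T-cell progenitors lie at the top with no gene lower, and medullary, liver, intestinal, microfold and tuft cell lists lie at the bottom with no gene higher. Genes all but absent from cTEC were tested only through their mTEC counts.

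More genes were detected in the mTEC libraries than in the cTEC libraries. At an equal depth of 8388869 counts, 15368, 14994 and 15208 genes had a count in the cTEC libraries and 16669, 16708 and 16765 in the mTEC libraries. The means were 15190 ± 188 and 16714 ± 48.3 genes, a difference of 1524 genes without overlap (exact permutation test, two-sided, p = 0.1, the smallest that 3 against 3 can give). There were 484 genes with a count in each mTEC library and 0 in all cTEC libraries, and 56 genes the other way round. A few genes also took more of the mTEC counts, with 12.5% ± 0.430 in the top 10 genes against 9.79% ± 0.258 in cTEC.

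The mTEC libraries also held more genes that were found in a single library of the group. In each mTEC library 66, 77 and 68 genes reached at least 5 CPM while the 2 other mTEC libraries had 0 counts. In cTEC the numbers were 21, 28 and 26 (70.3 ± 5.86 against 25.0 ± 3.61, exact permutation test, two-sided, p = 0.1). Examples, picked after their values were seen, were Casp14, a protease of the cornified skin, at 0 counts in each cTEC library and 80.96, 0 and 0 CPM in mTEC, and Fgb, the fibrinogen beta chain of liver, at 0 counts in each cTEC library and 0, 91.1 and 0 CPM in mTEC. Ibsp, a bone sialoprotein, was at 0, 0 and 0.188 CPM in cTEC and 0, 0 and 130.4 CPM in mTEC. Each came from 1 of the 3 mTEC libraries, so whether such a gene was seen depended on the library.

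**Figure D4:**
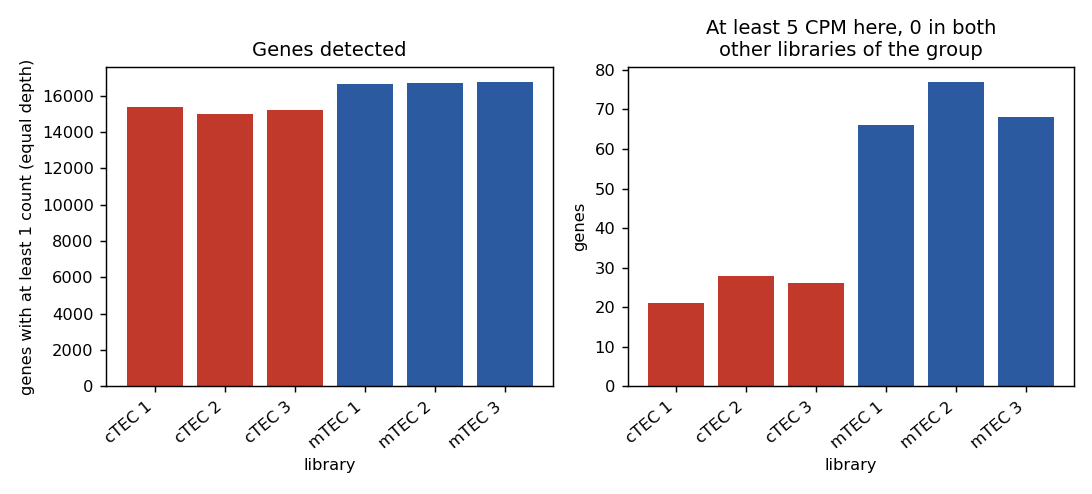
Left, genes with at least 1 count in each library at equal depth, and right, genes at 5 CPM or more in that library with 0 counts in both other libraries of its group. The 3 mTEC libraries (blue) are above the 3 cTEC libraries (red) in both, 16669 to 16765 against 14994 to 15368 genes on the left and 66 to 77 against 21 to 28 on the right.

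The tissue lists were read one by one, since few of their genes passed the filter on low counts. A gene at or near 0 in cTEC passed it only through its mTEC counts. How many of the tested genes fell was therefore partly set by the filter. Csn2, the milk protein beta-casein and a known target of Aire, was at 0, 0 and 3.66 CPM in cTEC and 675, 648 and 796 CPM in mTEC (log2 -9.12, SE 1.14, edgeR adjusted p = 0.00199), and it was high in all mTEC libraries. Both tested milk genes fell, but 5 of the 7 listed were too low to test. In the liver and plasma list 4 of 5 tested genes fell. Apoa4, an apolipoprotein, had 1 count in each cTEC library and 40.1, 39.7 and 50.02 CPM in mTEC, a ratio of 445, with a 95% counting interval of 152 to 2161 (edgeR adjusted p = 0.00024). Crp was at 0.0984, 4.48 and 4.32 CPM in cTEC and 74.3, 247 and 36.1 CPM in mTEC (log2 -5.32, SE 1.11, edgeR adjusted p = 0.015), and it was lost without mTEC replicate 2 (adjusted p = 0.0564) and in limma voom (adjusted p = 0.0895). Apoa1 was not tested and was at 0 counts in each cTEC library and 0, 70.4 and 37.03 CPM in mTEC.

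In the intestinal list 5 of 7 tested genes fell. Tff3, a trefoil peptide of goblet cells, was at 0.0984, 0 and 0 CPM in cTEC and 101, 38.3 and 33.2 CPM in mTEC, a ratio of 1732, with a 95% counting interval of 310.4 to 68444 (edgeR adjusted p = 0.000768). Cdhr1, counted among the 5 although it encodes a cadherin of photoreceptors rather than of gut, was at 6.30, 0 and 0.188 CPM in cTEC and 148, 307 and 190.4 CPM in mTEC (log2 -6.63, SE 1.22, edgeR adjusted p = 0.0095). Reg3g, an antimicrobial lectin of the gut, was at 0.197, 0.729 and 107 CPM in cTEC and 1066, 1049 and 748 CPM in mTEC. All mTEC libraries were above all cTEC libraries, and cTEC replicate 3 held far more than the other two, and the difference missed the threshold (log2 -4.73, SE 1.70, edgeR adjusted p = 0.0966). Of the pancreatic proteins 3 of 6 tested fell. Iapp, the islet amyloid hormone, had 0 counts in cTEC and 50.1, 76.6 and 99.7 CPM in mTEC, at least 781-fold lower in cTEC (edgeR adjusted p = 0.000629). Gcg, the glucagon gene, had 0 counts in cTEC and 71.3, 34.3 and 3.53 CPM in mTEC (edgeR adjusted p = 0.0113), and limma voom did not call it (adjusted p = 0.0818). The insulin genes Ins1 and Ins2 stayed under 1 CPM in all 6 libraries.

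Among neuronal proteins 2 of 6 tested fell. Gad1, which makes the transmitter GABA, was at 0.0984, 0 and 0 CPM in cTEC and 32.2, 30.4 and 34.6 CPM in mTEC, a ratio of 993, with a 95% counting interval of 178 to 39248 (edgeR adjusted p = 0.000643), whereas Gad2 had at most 1 count in any library. Snap25, a synaptic protein, fell too, a ratio of 708, with a 95% counting interval of 127 to 28022 (edgeR adjusted p = 0.0048). Among muscle proteins 4 of 6 tested fell, with Ttn, the giant sarcomere protein titin, at 0.886, 2.81 and 3.10 CPM in cTEC and 103, 58.1 and 104 CPM in mTEC (log2 -5.28, SE 0.54, edgeR adjusted p = 0.000955). Chrna1, the muscle acetylcholine receptor subunit, was at 0.394, 0.104 and 0.0939 CPM in cTEC and 18.3, 1.14 and 3.62 CPM in mTEC. It passed as lower (log2 -5.20, SE 1.38, edgeR adjusted p = 0.0367). The call of Chrna1 was lost without any 1 cTEC library or mTEC replicate 1 or 3 (adjusted p up to 0.164) and with all 12 libraries in the fit (adjusted p = 0.0544). In limma voom it had adjusted p = 0.105. Scgb1a1, a secretory protein of airway club cells, had 0 counts in cTEC and 14.9, 9.08 and 23.4 CPM in mTEC (edgeR adjusted p = 0.00411).

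Of 5 tested proteins of cornified skin 1 fell, Dsg1a, a desmosomal cadherin of keratinocytes, at 0.197, 0 and 4.69 CPM in cTEC and 204, 292 and 271 CPM in mTEC (log2 -7.25, SE 1.11, edgeR adjusted p = 0.00469). Sprr1a, a cornified envelope protein, was at 143, 2.60 and 47.2 CPM in cTEC and 105, 149.7 and 144 CPM in mTEC, with overlapping ranges. Bpifa1, a secreted protein of the airways, was at 114, 529.8 and 1177 CPM in cTEC and 26.2, 497 and 18.1 CPM in mTEC and overlapped as well (log2 1.75, SE 1.27, edgeR adjusted p = 0.401). The 2 salivary or lacrimal genes that fell, Lcn3 and Lcn11, had 0 counts in cTEC and 31.5, 2.90 and 7.07 and 52.03, 5.17 and 3.98 CPM in mTEC (edgeR adjusted p = 0.0145, and edgeR adjusted p = 0.0179). Lcn3 was lost without mTEC replicate 1 (adjusted p = 0.0502), the library with the highest level of both genes.

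Programmes of peripheral epithelial cell types were likewise lower in cTEC. Of 13 tested tuft cell genes 9 fell, with a median log2 fold change of -5.34, or -4.71 with the 3 genes at 0 counts in cTEC set at their bound. As in the tissue lists, genes near 0 in cTEC were tested only through mTEC, so these counts and medians are partly set by the filter. Trpm5, a channel of taste transduction, was at 0.197, 0 and 0 CPM in cTEC and 33.7, 23.7 and 13.2 CPM in mTEC, a ratio of 347, with a 95% counting interval of 95.8 to 2874 (edgeR adjusted p = 0.00265). Dclk1, a kinase that marks tuft cells, was at 6.10, 8.96 and 5.07 CPM in cTEC and 27.6, 46.8 and 73.00 CPM in mTEC and was also present in cTEC (log2 -2.87, SE 0.48, edgeR adjusted p = 0.00648). Gnb3, a G protein subunit of taste cells, was at 0.0984, 0 and 0 CPM in cTEC and 19.7, 10.3 and 85.6 CPM in mTEC, a ratio of 1312, with a 95% counting interval of 235 to 51856 (edgeR adjusted p = 0.00301). Pou2f3, the transcription factor that specifies tuft cells, was at 0.590, 11.2 and 7.89 CPM in cTEC and 13.2, 5.68 and 13.7 CPM in mTEC, with overlapping ranges (log2 -0.73, SE 0.95, edgeR adjusted p = 0.664). Il25 and Chat passed as lower, and each was lost in each of the 6 leave-outs (adjusted p up to 0.0917 and 0.0865).

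Of 10 tested microfold cell genes 7 fell. Spib, the transcription factor that specifies microfold cells, was at 5.90, 0.104 and 0.751 CPM in cTEC and 119, 186 and 135 CPM in mTEC (log2 -6.01, SE 1.00, edgeR adjusted p = 0.00641). Ccl6 and Ccl9 were at 0.0984, 0 and 0.751 CPM in cTEC and 11.2, 132 and 62.7 CPM in mTEC and 0.0984, 4.17 and 2.16 CPM in cTEC and 23.1, 148 and 91.03 CPM in mTEC (log2 -7.82, SE 1.28, edgeR adjusted p = 0.00604, and log2 -5.35, SE 1.07, edgeR adjusted p = 0.0129), and both were highest in mTEC replicate 2. In limma voom neither was called (adjusted p = 0.116 and 0.0784). Gp2, a bacterial receptor of these cells, was at 0.295, 10.8 and 0 CPM in cTEC and 219.8, 505 and 49.6 CPM in mTEC, also highest in that library, and fell (log2 -6.14, SE 1.53, edgeR adjusted p = 0.0293). The call of Gp2 was lost without cTEC replicate 1 or 3 or mTEC replicate 1 or 2 (adjusted p up to 0.0863). In limma voom it had adjusted p = 0.185. Of 7 tested neuroendocrine genes 4 fell. Chga, a protein of secretory granules, had 0 counts in cTEC and 22.5, 9.21 and 3.27 CPM in mTEC (edgeR adjusted p = 0.011).

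Transcription factors of gut and liver differed from one another. Cdx1, an intestinal homeobox gene, was at 0.0984, 0 and 1.78 CPM in cTEC and 193, 142 and 116 CPM in mTEC and fell (log2 -7.84, SE 0.95, edgeR adjusted p = 0.00177). Cdx2, of the same family, and Hnf4a, a factor of liver and gut, had no count in any mTEC library. Foxi1, the transcription factor of ionocytes, was at 0 counts in each cTEC library and 5.30, 46.03 and 0 CPM in mTEC and was too low to test. Of 6 tested genes of ciliated cells 1 fell, Spag6 (edgeR adjusted p = 0.0169). The call of Spag6 was lost without any 1 cTEC library or mTEC replicate 1 (adjusted p up to 0.0684) and with all 12 libraries in the fit (adjusted p = 0.0544). Foxj1, the regulator of motile cilia, was at 0 counts in each cTEC library and 3.39, 0.252 and 0.619 CPM in mTEC and was not tested.

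Among 20 tested transcription factors of thymic epithelium, 5 rose and 3 fell. Pax1, a factor of the pharyngeal pouch from which the thymus arises, was at 248, 172 and 137 CPM in cTEC and 22.99, 31.7 and 52.6 CPM in mTEC (log2 2.37, SE 0.36, edgeR adjusted p = 0.00467). Trp63, needed for the upkeep of epithelial progenitors, was at 666, 653 and 439 CPM in cTEC and 134, 226 and 176 CPM in mTEC (log2 1.71, SE 0.25, edgeR adjusted p = 0.00394). Pax9 overlapped and missed the threshold (log2 0.30, SE 0.26, edgeR adjusted p = 0.482). Grhl3, a factor of stratified epithelium, was at 0.0984, 0 and 0.282 CPM in cTEC and 9.01, 26.2 and 9.46 CPM in mTEC and fell (log2 -6.71, SE 1.14, edgeR adjusted p = 0.00706), and Ehf fell as well (log2 -4.27, SE 0.92, edgeR adjusted p = 0.0171) but was lost without cTEC replicate 1 (adjusted p = 0.0529). Eya1 rose by less (log2 0.97, SE 0.24, edgeR adjusted p = 0.0299). The call of Eya1 was lost without cTEC replicate 1 or 2 or mTEC replicate 1 or 2 (adjusted p up to 0.0899) and with all 12 libraries in the fit (adjusted p = 0.694). In the fit with 12 libraries 3 of the 8 calls remained, Pax1, Ehf and Grhl3, and Trp63 had adjusted p = 0.468.

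In the list of Aire, its partners and other chromatin genes, 2 of 15 tested fell (13.3%, near the 10.8% of all tested genes) and none rose. The 2 were Sirt1 and Aire itself, which was already counted with the medullary genes. Sirt1, a deacetylase that acts on Aire, was at 54.3, 28.1 and 44.9 CPM in cTEC and 149.9, 182 and 146 CPM in mTEC (log2 -1.91, SE 0.27, edgeR adjusted p = 0.00359). Chd4 did not pass (log2 0.46). Dnmt3l was at 0, 0 and 4.32 CPM in cTEC and 32.3, 34.1 and 9.72 CPM in mTEC and missed the threshold (log2 -4.12, SE 1.59, edgeR adjusted p = 0.12).

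Keratins and junction proteins differed gene by gene. Of 14 keratins tested 1 rose and 4 fell. Krt17 was at 668, 512 and 834 CPM in cTEC and 2959, 3343 and 3543 CPM in mTEC (log2 -2.29, SE 0.20, edgeR adjusted p = 0.00064), and Krt20, a keratin of gut and bladder epithelium, was at 0, 0 and 0.376 CPM in cTEC and 38.04, 88.2 and 192 CPM in mTEC (log2 -9.53, SE 1.05, edgeR adjusted p = 0.00135). Krt5 and Krt14, keratins of basal cells used to stain medulla, were present in both groups. Krt5 was at 337, 181 and 132 CPM in cTEC and 584, 704 and 735 CPM in mTEC and fell (log2 -1.64, SE 0.33, edgeR adjusted p = 0.0133), a call lost without cTEC replicate 2 (adjusted p = 0.0512). In tight junctions, with 16 genes tested, 4 fell and 1 rose. Cldn4, a claudin of mature medullary cells, was at 16.3, 5.00 and 15.7 CPM in cTEC and 89.6, 139 and 89.6 CPM in mTEC (log2 -3.10, SE 0.47, edgeR adjusted p = 0.00455), and Cldn13 fell, a ratio of 768, with a 95% counting interval of 212 to 6346 (edgeR adjusted p = 0.000936). Cldn3 was at 0, 0.208 and 6.95 CPM in cTEC and 33.6, 22.95 and 9.81 CPM in mTEC and missed the threshold (log2 -3.20, SE 1.49, edgeR adjusted p = 0.19).

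Desmosomal cadherins differed in direction. Dsc3 rose in cTEC, at 477, 474 and 560.5 CPM in cTEC and 179, 94.97 and 149 CPM in mTEC (log2 1.84, SE 0.24, edgeR adjusted p = 0.00263), whereas Dsg2 fell, at 82.3, 112 and 120.1 CPM in cTEC and 324, 415 and 565 CPM in mTEC (log2 -2.05, SE 0.25, edgeR adjusted p = 0.00197). Dsp, the desmosomal plaque protein, and Ctnnb1, which encodes beta-catenin, rose (log2 1.25, SE 0.17, edgeR adjusted p = 0.00274, and log2 0.71, SE 0.14, edgeR adjusted p = 0.0125). Cdh1, the E-cadherin of both groups, overlapped and missed the threshold (log2 -0.07, SE 0.19, edgeR adjusted p = 0.844). With all 12 libraries in the fit Dsp was lost (adjusted p = 0.351).

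Of 23 tested matrix genes 10 rose, 2 fell and 11 did not pass, with a median log2 fold change of 1.28. Sparc, a matrix-binding glycoprotein, was at 683, 897 and 909.8 CPM in cTEC and 147, 129 and 255 CPM in mTEC (log2 2.23, SE 0.28, edgeR adjusted p = 0.00212). Lamb1, a laminin chain of basement membranes, was at 382, 229 and 319 CPM in cTEC and 45.7, 82.6 and 86.5 CPM in mTEC (log2 2.11, SE 0.30, edgeR adjusted p = 0.00356), and Col4a5 was at 75.9, 48.1 and 77.8 CPM in cTEC and 4.56, 4.41 and 6.80 CPM in mTEC (log2 3.67, SE 0.37, edgeR adjusted p = 0.000951). Col18a1 rose as well (log2 2.29, SE 0.27, edgeR adjusted p = 0.00163). The collagens Col6a1 and Col6a2 were the 2 that fell, Col6a2 to 25.6 ± 3.53 CPM from 91.5 ± 20.7 CPM (log2 -1.83, SE 0.27, edgeR adjusted p = 0.00391). The proteoglycan Dcn, also a marker of fibroblasts, was at 2207, 2099.9 and 1690.5 CPM in cTEC and 261, 126 and 408 CPM in mTEC (log2 2.92, SE 0.40, edgeR adjusted p = 0.00285). Of 11 fibroblast and mesenchyme markers tested, 2 rose, Dcn and the collagen Col3a1, 1 fell and 8 did not pass. Col3a1 was at 77.3, 50.4 and 15.6 CPM in cTEC and 2.33, 3.03 and 10.9 CPM in mTEC (log2 3.13, SE 0.80, edgeR adjusted p = 0.0309), and limma voom did not call it (adjusted p = 0.0785). Col1a2, a collagen of the same cells, lay toward cTEC without passing, at 39.6, 19.6 and 1.41 CPM in cTEC and 1.91, 2.52 and 0.619 CPM in mTEC (log2 3.59, SE 1.15, edgeR adjusted p = 0.0689). Rgs5, a marker of pericytes, was the one that fell, at 9.25, 69.6 and 20.2 CPM in cTEC and 255, 470.4 and 227 CPM in mTEC (log2 -3.27, SE 0.71, edgeR adjusted p = 0.0172). The call of Rgs5 was lost without cTEC replicate 3 or mTEC replicate 2 (adjusted p up to 0.0557) and with all 12 libraries in the fit (adjusted p = 0.093). Acta2, a smooth muscle actin, was abundant in both groups, at 81.2, 223 and 351 CPM in cTEC and 247, 339 and 398 CPM in mTEC, and did not pass. Pdgfrb and Dpt lay toward mTEC without passing (log2 -3.03, SE 1.17, edgeR adjusted p = 0.121, and log2 -1.65, SE 1.14, edgeR adjusted p = 0.376), and Pi16 had at most 2 counts in any library. Summed over 12 fibroblast markers the level was 2112 to 2486 CPM in cTEC and 788 to 1083 CPM in mTEC. The sum came mostly from Dcn in cTEC and from Acta2, Rgs5 and Dcn in mTEC, and its part in the matrix result was not tested. Without cTEC replicate 2 the list kept 7 of its 12 calls, and Lama3, Fn1, Col4a6, Col3a1 and Col6a1 were lost (adjusted p = 0.0669, 0.0897, 0.063, 0.0712 and 0.0691), each of which was also lost without at least 1 mTEC library (adjusted p up to 0.129, 0.11, 0.0763, 0.103 and 0.0721). In the fit with 12 libraries 4 calls remained, those of Lamb1 and Sparc among them, and Col4a5, Col18a1 and Col6a2 had adjusted p = 0.148, 0.0609 and 0.209.

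Genes of the interferon response rose in 6 of 20 tested and fell in 1. Ifit1 was at 1293, 1244 and 973 CPM in cTEC and 141, 324 and 262 CPM in mTEC (log2 2.27, SE 0.30, edgeR adjusted p = 0.00266), and Gbp2 and Iigp1, which are induced by interferon-gamma, rose (log2 1.96, SE 0.28, edgeR adjusted p = 0.00359, and log2 1.35, SE 0.20, edgeR adjusted p = 0.00446). Usp18, an interferon-induced protease that restrains the response, fell in cTEC, at 606, 430.3 and 678 CPM in cTEC and 1205, 1356 and 1311 CPM in mTEC (log2 -1.18, SE 0.19, edgeR adjusted p = 0.00596). Irf7 and Oas1a overlapped and did not pass (log2 0.23 and -0.24), so the list did not move as a block. Among 17 immediate early and heat shock genes, which respond to tissue digestion and sorting, 4 rose and 1 fell. Ier3 and Zfp36 rose (log2 1.89, SE 0.26, edgeR adjusted p = 0.00297, and log2 0.75, SE 0.14, edgeR adjusted p = 0.0107), Hspa8 fell (log2 -0.93, SE 0.14, edgeR adjusted p = 0.00468), and Fos missed the threshold (log2 0.58, SE 0.20, edgeR adjusted p = 0.0844). With all 12 libraries in the fit the call of Zfp36 was lost (adjusted p = 0.0911).

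Cell cycle genes fell in 5 of 21 tested and rose in none, with a median log2 fold change of -1.14. Ccnd1, a cyclin of the first gap phase, was at 22.4, 21.97 and 13.5 CPM in cTEC and 53.8, 54.5 and 62.7 CPM in mTEC (log2 -1.56, SE 0.31, edgeR adjusted p = 0.0125). The proliferation marker Mki67 was at 0.886, 95.8 and 47.6 CPM in cTEC and 130.3, 43.01 and 97.4 CPM in mTEC, and cTEC replicate 1 alone was near 0 (log2 -0.91, SE 1.09, edgeR adjusted p = 0.629). Rrm2, which makes deoxynucleotides, was at 26.1, 67.5 and 27.4 CPM in cTEC and 164, 115 and 181 CPM in mTEC and fell (log2 -1.93, SE 0.41, edgeR adjusted p = 0.0155), a call lost without mTEC replicate 1 (adjusted p = 0.0511). In the fit with 12 libraries 1 of the 5 calls remained, that of Ccnd1. In energy metabolism 3 of 15 glycolysis genes fell and none rose, and of 17 genes of oxidative phosphorylation 2 fell (11.8%, near the 10.8% of all tested genes) and none rose. Eno1 was at 93.96, 108 and 131 CPM in cTEC and 255, 240.4 and 266 CPM in mTEC (log2 -1.19, SE 0.18, edgeR adjusted p = 0.00446), and Cycs, which encodes cytochrome c, fell to 72.8 ± 2.40 CPM from 151 ± 15.9 CPM (log2 -1.06, SE 0.18, edgeR adjusted p = 0.00651). The other one, Atp5b of the ATP synthase, was lost without cTEC replicate 2 (adjusted p = 0.137) and with all 12 libraries (adjusted p = 0.249).

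Antioxidant enzymes went both ways, with 2 of 15 tested higher and 3 lower. Gpx3, a secreted glutathione peroxidase, was at 189, 92.3 and 148 CPM in cTEC and 1545, 1820.3 and 1776 CPM in mTEC (log2 -3.58, SE 0.28, edgeR adjusted p = 0.000416). Nqo1, a quinone reductase, was at 479, 349 and 636 CPM in cTEC and 67.4, 98.00 and 42.1 CPM in mTEC (log2 2.82, SE 0.36, edgeR adjusted p = 0.00206). Of 13 genes of cholesterol and lipid synthesis 4 rose and 1 fell. Srebf1, the regulator of fatty acid synthesis, was at 80.6, 66.96 and 77.1 CPM in cTEC and 20.5, 14.4 and 16.3 CPM in mTEC (log2 2.14, SE 0.27, edgeR adjusted p = 0.00202). Apoe rose (log2 1.51, SE 0.39, edgeR adjusted p = 0.0335). The call of Apoe was lost without any 1 cTEC library or mTEC replicate 1 or 2 (adjusted p up to 0.109). The calls of Nqo1 and Srebf1 were lost with all 12 libraries in the fit (adjusted p = 0.13 and 0.078).

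Inhibitors of serine proteases lay on both sides of the comparison. In the list of serine proteases and inhibitors, with 18 genes tested, 6 rose and 3 fell. Serpinf1, the secreted pigment epithelium-derived factor, was at 168, 262 and 288 CPM in cTEC and 1.59, 1.51 and 2.39 CPM in mTEC (log2 7.00, SE 0.35, edgeR adjusted p = 0.000144). The lowest cTEC library was 70.3-fold above the highest mTEC library. Serpinb5, the serpin maspin, rose (log2 1.38, SE 0.22, edgeR adjusted p = 0.00504), a call lost with all 12 libraries in the fit (adjusted p = 0.0746), and Spint2, an inhibitor of membrane-bound serine proteases, fell, at 206, 222 and 253 CPM in cTEC and 540.3, 543 and 607 CPM in mTEC (log2 -1.31, SE 0.15, edgeR adjusted p = 0.00158).

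The genes with the largest changes included several outside these lists. Prkcq, or protein kinase C theta, a kinase of T-cell receptor signalling, had 41.4, 13.6 and 44.04 CPM in cTEC and 0 counts in mTEC, at least 321-fold higher in cTEC (edgeR adjusted p = 0.00239). Prss23, a serine protease, was at 97.6, 121 and 33.4 CPM in cTEC and 0.106, 0 and 0.0884 CPM in mTEC, a ratio of 1182, with a 95% counting interval of 327 to 9765 (edgeR adjusted p = 0.000507). Adhfe1, a mitochondrial alcohol dehydrogenase, was at 31.4, 31.97 and 40.8 CPM in cTEC and 0, 0 and 0.0884 CPM in mTEC, and Phex, an endopeptidase of phosphate metabolism, at 15.8, 28.3 and 22.8 CPM in cTEC and 0.106, 0 and 0 CPM in mTEC (edgeR adjusted p = 0.00056, and edgeR adjusted p = 0.00136). Aldh1a1, which makes retinoic acid, was at 175, 97.2 and 68.2 CPM in cTEC and 0, 0.252 and 1.06 CPM in mTEC (log2 7.88, SE 0.86, edgeR adjusted p = 0.00131). Scn1a, a neuronal sodium channel subunit, was at 313, 276 and 253 CPM in cTEC and 3.50, 0.126 and 0.353 CPM in mTEC (log2 7.71, SE 0.86, edgeR adjusted p = 0.00136). Grin3a, a glutamate receptor subunit, was at 46.9, 17.5 and 18.2 CPM in cTEC and 0, 0 and 0.265 CPM in mTEC (edgeR adjusted p = 0.00321).

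At the other end, Fcer2a, the low-affinity IgE receptor also known as CD23, had 0 counts in cTEC and 58.7, 163 and 159 CPM in mTEC, at least 1291-fold lower in cTEC (edgeR adjusted p = 0.000936). Rgs13, a regulator of G protein signalling, had 159.9, 144 and 59.03 CPM in mTEC against 0 counts, at least 1173-fold lower in cTEC (edgeR adjusted p = 0.000878). Pgc, the gastric protease precursor progastricsin, had 39.1, 71.8 and 81.7 CPM, and Tm4sf5, a tetraspan membrane protein, 78.7, 77.6 and 58.2 CPM, both against 0 counts (edgeR adjusted p = 0.000822, and edgeR adjusted p = 0.00042). Cyp26a1, which degrades retinoic acid, had 41.5, 33.7 and 72.6 CPM against 0 counts, at least 524-fold lower in cTEC (edgeR adjusted p = 0.00104). Aldh1a1 and Cyp26a1 thus lay on opposite sides of the comparison. Madcam1, an adhesion ligand for lymphocytes, had 120.4, 50.3 and 12.4 CPM against 0 counts (edgeR adjusted p = 0.00556), and limma voom did not call it (adjusted p = 0.0511).

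Of the most abundant genes that differed, Ubd, a ubiquitin-like modifier, was at 407, 450.4 and 495 CPM in cTEC and 4748, 5988 and 3298 CPM in mTEC (log2 -3.37, SE 0.24, edgeR adjusted p = 0.000345). Srgn, the core protein of a granule proteoglycan, was at 25.9, 80.8 and 159.8 CPM in cTEC and 3263, 3226 and 2331 CPM in mTEC (log2 -5.05, SE 0.63, edgeR adjusted p = 0.00197), and Wfdc18, a small secreted protein of the whey acidic protein family, was at 11.7, 3.96 and 80.00 CPM in cTEC and 3156, 4385 and 2978 CPM in mTEC (log2 -6.78, SE 1.10, edgeR adjusted p = 0.00585). Higher in cTEC were Rnase4, a secreted ribonuclease, at 1331, 1165 and 1024 CPM in cTEC and 78.7, 49.1 and 92.00 CPM in mTEC (log2 4.00, SE 0.27, edgeR adjusted p = 0.000278), and Pltp, the phospholipid transfer protein, at 1026, 1226 and 1457 CPM in cTEC and 149, 168 and 248 CPM in mTEC (log2 2.71, SE 0.24, edgeR adjusted p = 0.000651).

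Transcripts of other cells were low in both groups but not equal. Summed over 15 thymocyte markers the level was 95.6 to 137 CPM in cTEC and 45.0 to 66.1 CPM in mTEC, with no marker at 0 in all libraries. Of 13 tested, 2 rose, Cd8a, at 7.67, 23.8 and 4.32 CPM in cTEC and 0 counts in each mTEC library, and Cd3e, at 25.4, 4.48 and 11.7 CPM in cTEC and 0.212, 0 and 0 CPM in mTEC, although lineage-positive cells were gated out. The 7 B cell markers summed to 0.098 to 2.72 CPM in cTEC and 21.0 to 53.0 CPM in mTEC, almost all of it Cd79b and Blk, whereas Ms4a1 had at most 2 counts in any library and Faim3 had 0 in all. The 13 markers of dendritic cells and macrophages summed to 11.2 to 175 CPM in cTEC and 454 to 503 CPM in mTEC. Of 8 tested, 2 fell, C1qa, at 0 counts in each cTEC library and 4.56, 3.78 and 4.95 CPM in mTEC, and Fcer1g, at 1.48, 0 and 0.657 CPM in cTEC and 5.93, 29.8 and 34.4 CPM in mTEC (edgeR adjusted p = 0.0127, and edgeR adjusted p = 0.027). The call of Fcer1g was lost without cTEC replicate 3 or mTEC replicate 2 or 3 (adjusted p up to 0.0831) and with all 12 libraries in the fit (adjusted p = 0.106). Fcer1g had adjusted p = 0.0757 in limma voom. With all 12 libraries C1qa had adjusted p = 0.101. Lyz2 made up most of the sum in mTEC and in cTEC replicate 3, at 1.38, 0 and 153 CPM in cTEC and 432, 342 and 386 CPM in mTEC, and did not pass. The defining markers Itgax, Emr1 and Siglech were under 2 CPM throughout. The 9 erythroid and platelet markers summed to 0.098 to 2.44 CPM in cTEC and 48.6 to 86.6 CPM in mTEC, and 3 of 4 tested fell. These calls, of Hba-a1, Hba-a2 and Pf4, were all lost with all 12 libraries and with the replicate number as a block. None was kept in every leave-out, and that of Pf4 was lost without cTEC replicate 2. Markers near 0 in cTEC were tested only through mTEC, and the reverse. None of the 10 endothelial markers tested was called, and their median log2 fold change went from 1.05 to -1.62 without cTEC replicate 2. In that leave-out 2 markers of the list were called lower in cTEC, and with all 12 libraries in the fit 1 was called higher. In bulk RNA, fewer cells of a type and less RNA per cell cannot be told apart, and the part of these markers in the differences between groups was not tested.

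**Figure D5:**
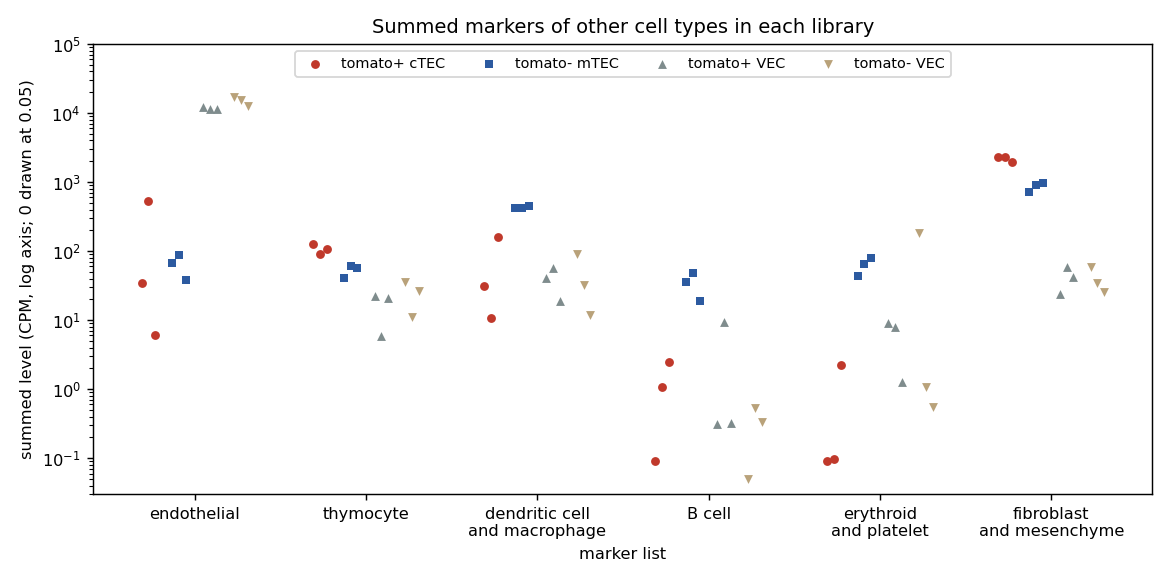
Summed level (CPM scaled over all 12 libraries, log axis, values of 0 drawn at 0.05) of 6 marker lists of other cell types in each library of the 4 groups of the series. One cTEC library lies above the other epithelial libraries in endothelial markers and far below the endothelial groups (VEC), and erythroid and B cell markers lie higher in all 3 mTEC than in all 3 cTEC libraries.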

How the data were processed

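Polyadenylated RNA of sorted thymic stromal cells was amplified (SMARTer ultra-low kit) and sequenced, per the labels' protocols. TopHat2 2.0.10 and the build mm9 are listed in the submitters' processing notes. For the read counter, annotation and strand setting nothing was given in the sources, so overlapping or near-identical genes may share reads. The authors' deposited table holds raw counts per gene symbol and deposited RPKM values, per the file headers. Counts of the 6 libraries were tested with edgeR 4.0.16 (R 4.3.3) after filterByExpr (minimum count 10) and TMM scaling, with a term per group (4 residual degrees of freedom, common dispersion 0.339). Genes were called at a Benjamini-Hochberg adjusted p under 0.05 over all tested genes. Where all libraries of a group had 0 counts, the fold printed is a bound against 3 counts over those libraries. With 1 to 3 counts the ratio has an exact 95% counting interval. Intervals and bounds cover counting error only. Genes detected were counted after random thinning to equal totals.

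The 49 lists, their members and the tests were chosen with earlier results of these data known, so list counts are descriptions, read against the share of all tested genes. Genes were named by a rule: the sorting genes, the 12 largest called changes in each direction (mean of at least 20 CPM, no overlap, also called without cTEC replicate 2), the 8 most abundant called genes that moved by at least 2 in log2, up to 4 called and 3 not passed members per list, and other members with their list. Unnamed models and antigen receptor segments were left out. Some genes are not reported here. Promoters came from RefSeq (GRCm38.p6), and 11035 of the 14057 tested genes had an entry.

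Alternatives were DESeq2 1.42.0, limma 3.58.1 voom, limma-trend on log2(RPKM + 1) from the deposited RPKM, relative log expression scaling, other filters, a fold threshold, robust dispersions, the replicate number as a block, all 12 libraries, and each library left out. The scripts were tested on simulated data with known changes. There edgeR recovered 16%, 34%, 80% and 66% of genes changed 2-, 4-, 8- and 16-fold, with 50 genes per size, so smaller changes were often missed. Of its 99 calls 1.01% were false, against 36.3% of 190 with DESeq2 and 1.3% of 77 with limma voom.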

Additional observations from a re-analysis of the deposited data

How the results depend on the processing

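The fit with all 12 libraries called 1158 genes (404 higher, 754 lower), the lowest numbers among the alternatives, and limma-trend on log2(RPKM + 1) gave the most higher calls, 1465. DESeq2 called 3502 genes. Leaving out 1 library gave 1552 to 2068 calls, with 522 to 808 higher and 972 to 1375 lower; the counts fell by over 1.5 times without cTEC replicate 1 (1556), mTEC replicate 1 (1552) or mTEC replicate 2 (1642), and that of higher calls also without cTEC replicate 2 (599). Deviations of libraries with the same replicate number had correlations of -0.0156, 0.0134 and 0.0461, against -0.045 to 0.0305 for the other pairs. With 3 libraries per group these values cannot tell whether libraries of the same number share a source. The fit with the replicate block called 1734 genes (692 higher, 1042 lower). The difference in genes detected was 1476 without thinning and 1702 with at least 5 counts, and 1426 to 1613 without 1 library. Of 201 genes named and tested, none of those called changed direction under the alternatives run. Calls were lost for 52 genes with all 12 libraries, 15 with the replicate block, 11 with limma voom and 10 to 23 without 1 library. Keeping only calls with an estimated absolute log2 fold change of at least 1 dropped 13. Only Pecam1 and Cdh1, neither called, changed sign. Pecam1 was at log2 -0.405 with limma voom, -0.587 with the replicate block and -2.79 to 2.88 without 1 library, being below 0 without cTEC replicate 2. Cdh1 was at 0.0533 with limma-trend and -0.215 to 0.0510 without 1 library, being above 0 without mTEC replicate 2. Total counts of 8388869 to 11807130 per library and 3 libraries per group limit what can be seen of genes at a few counts, so a gene at 0 was not detectable at this depth rather than absent. The cause of these shifts was not tested.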
